A study of Mus musculus with 7 samples.

Results

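The respiratory chain subunits described here are 35 nuclear genes of oxidative phosphorylation, of 18193 genes that the platform annotation names. There are 20 subunits of complex I, 4 of complex II, 6 of complex III (cytochrome c1 among them), 4 of complex V and the mobile carrier cytochrome c. A gene was represented by 1 probe set, a group of oligonucleotides read together as 1 value. It was the one that the annotation assigns to that gene only and that had the highest mean over the 7 arrays. All 35 genes were found. Of these, 14 had 1 such probe set and 21 had several, 72 probe sets in all. Every chosen probe set was above the array median on all 7 arrays, so no member was left out by a filter on low values.

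RNA came from whole bladders, taken by gross dissection from male FVB/N mice that carry EGFP under the promoter of SMGA (Actg2), the smooth muscle gamma-actin gene. Both bladder groups carry this transgene, and the bladder was not sorted, so each array averages smooth muscle, urothelium and the other cells of the organ. There were 3 adult bladders (Theiler stage 28) and 3 bladders of postnatal day 1 (P1, Theiler stage 27), each labelled as not pooled. The seventh array held a pool of 4 male and 4 female wild-type FVB/N newborns of the same day, and was made as a common standard for comparing arrays. Its title names bladders, whereas its source and its protocol name whole animals, and it is called the whole-newborn reference here. Storage differed with stage, in liquid nitrogen for adult bladders and in a freezer for those of P1, and their parts cannot be told apart. Each bladder array is 1 sample, and p-values measure the spread between such samples. In whole organs, fewer cells of a type and less RNA per cell cannot be told apart.

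The respiratory chain sits in the inner mitochondrial membrane. Complex I takes electrons from NADH and complex II from succinate, and both pass them through ubiquinone to complex III, from which cytochrome c carries them to complex IV. Complexes I, III and IV pump protons, and complex V, the ATP synthase, uses the resulting gradient to make ATP. Complex II is also the succinate dehydrogenase of the citrate cycle and pumps no protons. In the bladder the ATP supports contraction of the detrusor muscle and the barrier of the urothelium. The genes are known targets of the nuclear factors NRF1 and GABPA and of the estrogen-related receptor alpha, which the coactivator Ppargc1a binds.

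The median intensity of the arrays was between 209 and 434, with a common trimmed mean of 1500. The log2 values of replicates correlated over probe sets with r of 0.931 to 0.971 in adult bladder and 0.934 to 0.948 in P1 bladder. Smooth muscle markers had a mean log2 level of 14.6 to 15.1 in adult and 14.5 to 15.0 in P1 bladder against 11.6 in the reference, and urothelial markers 13.4 to 13.9, 13.4 to 14.0 and 10.9. The labelled organ was therefore borne out by both marker lists. Adult replicate 2 stood apart: its hybridization spike-ins were 2.33 times those of the array with the lowest, and adult replicates 1 and 3 carried transcripts of male accessory glands (mean log2 9.83 and 9.59, against 7.07 in adult replicate 2).

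Between adult and P1 bladder 4 members passed the test described below (where 8.83% of all genes tested did). The sequences at the starts of these genes are shown because they hold, or lack, an exact match to the motif of NRF1. RefSeq promoter windows of build GRCm38.p6, 250 bases before to 50 after a start, were at hand for 26 of the 35 members in 28 windows. The runs read 5′ to 3′ on the gene's strand, with matches to the NRF1 motif (GCGCA, any base, then GCGC), on either strand, in capitals.
Sdha, chr13:74350241-74350350, minus strand, before the start: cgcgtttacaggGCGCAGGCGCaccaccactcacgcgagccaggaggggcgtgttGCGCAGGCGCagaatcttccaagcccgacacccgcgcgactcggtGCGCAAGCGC
Uqcrc1, chr9:108936643-108936672, plus strand, across the start: cttccttacaGCGCTTGCGCctcagactcc
Atp5o, chr16:91931602-91931631, minus strand, just after the start: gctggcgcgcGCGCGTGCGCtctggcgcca
Cycs, chr6:50566570-50566639, minus strand, before the start: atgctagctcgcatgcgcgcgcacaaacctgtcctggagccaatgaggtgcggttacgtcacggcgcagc
Sdhd, chr9:50603899-50603948, minus strand, before the start: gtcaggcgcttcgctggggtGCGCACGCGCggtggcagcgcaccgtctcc
Sdha held 3 matches, which began 98, 55 and 10 bases before its start. Uqcrc1 held 2 matches within its first 50 bases, of which the first is shown. The Cycs run is shown as the called member with no exact match in its window. It holds tcgcatgcgc, which differs from the motif in its first letter only, and such near matches were not counted. Sdhd is shown as a complex II gene with a match whose values did not pass the test.

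The NRF1 letters were in 8 of the 28 member windows (28.6%), in 7 genes (Atp5c1, Atp5o, Ndufa5, Ndufa8, Sdha, Sdhd and Uqcrc1), against 4.60% of 32851 windows of the same length. Both directions of change are among these genes, since Sdha was higher in adult bladder and Uqcrc1 and Atp5o were lower. The YY1 letters AAGATGGC, on either strand, were in 17.9% of member windows against 2.75% of all. The 5 genes with them (Ndufa9, Ndufb8, Ndufc1, Ndufs4 and Ndufs7) belong to complex I, which holds 20 of the 35 members, and 9 members had no window. The GABPA letters CCGGAAG were in 14.3% against 8.86%, and the estrogen-related receptor letters TCAAGGTCA in 1 window, that of Sdhd, against 0.423% of all. The member windows had a median GC content of 59.5% and all windows one of 52.7%, and the part of base composition was not tested. A match is a run of letters and not a measured binding site.

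Adult bladder was compared with P1 bladder to ask how these genes differ between the newborn and the mature organ. Sdha was 2.01-fold higher in adult bladder, and Uqcrc1, Cycs and Atp5o were 1.91-, 2.09- and 2.29-fold lower. The other 31 members did not pass the test (limma's moderated test, Benjamini-Hochberg adjusted p under 0.05 over all probe sets tested). So 4 of 35 members were called, 1 higher and 3 lower, where 8.83% of the 11947 genes tested were called (3.96% higher and 4.87% lower). The share of members called is thus near that of all genes. Of the 35, 26 had a lower mean in adult bladder and 9 a higher, and the median difference was -0.24 on the log2 scale against -0.01 over all genes. In 16 members (45.7%) all adult arrays were below all P1 arrays, where 16.4% of genes had that order, and in 1 member, Sdha, all adult arrays were above, where 15.7% of genes had. With every array centred on its own median these counts were 11 lower (15.6% of genes) and 3 higher (12.1%), and the calls were Sdha higher (2.48% of genes) and Cycs lower (3.74%). Of 31 other probe sets of these genes that were tested, 24 had the sign of the chosen one and 3 were called.

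**Figure D1:**
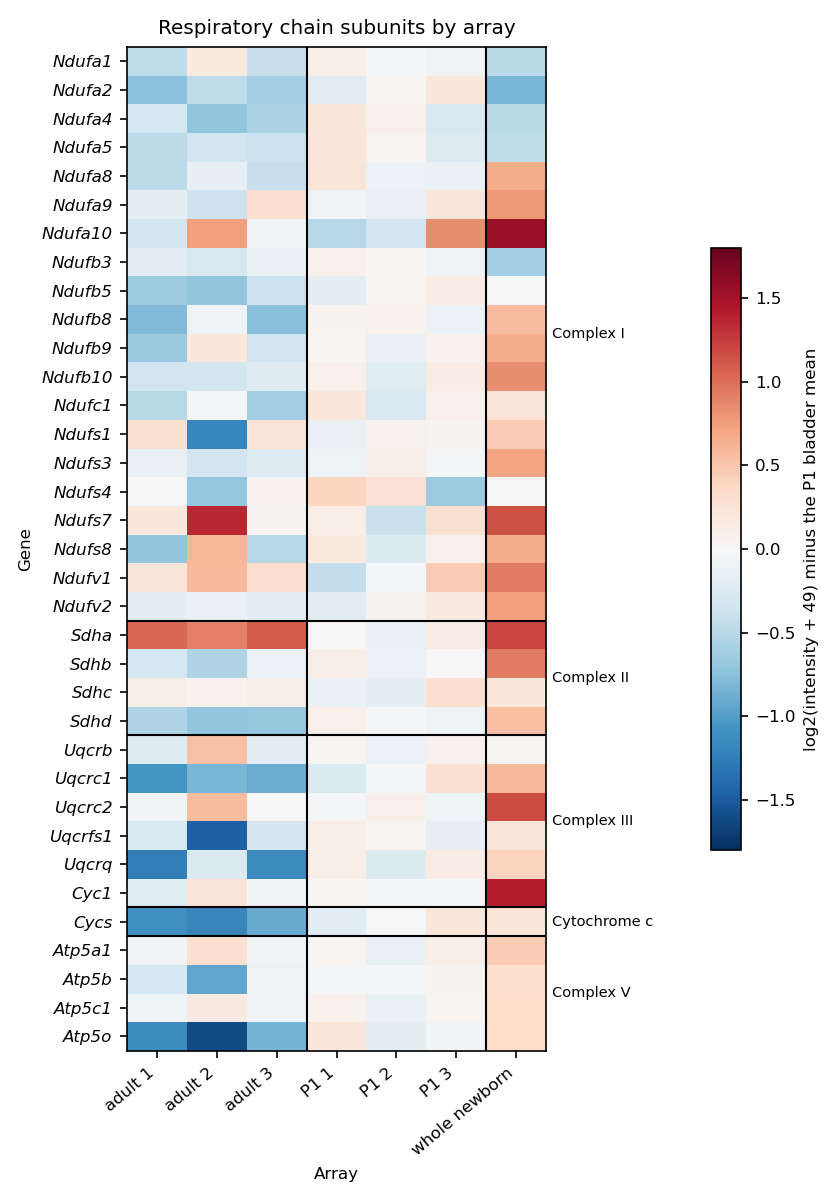
Each row is a gene and each column an array, and colour gives log2(intensity + 49) minus the mean of the 3 P1 bladders. Sdha is red and Cycs, Uqcrc1 and Atp5o are blue on all 3 adult arrays, while adult replicate 2 differs in sign from the other adults in rows such as Ndufs1 and Ndufs8.

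Complex II showed the widest split within 1 complex. Sdha encodes the flavoprotein that oxidizes succinate. Its intensity (probe set 1426689_s_at) was 30080.7, 27479.3 and 31110.8 in adult replicates 1 to 3, 14631.6, 13437.5 and 16027.3 in the P1 replicates, and 33858.0 in the reference. The adult arrays were all above the P1 arrays and near the reference, and the groups were far from overlapping. The means were 29557 ± 1872 and 14699 ± 1296 (SD, n = 3 each), a log2 difference of 1.01 (SE 0.18, 95% interval 0.59 to 1.42, adjusted p = 0.0124), or 2.01-fold. Another probe set of Sdha, 1426688_at, gave 0.38 and was not called (adjusted p = 0.365), and with the mean of all its probe sets Sdha was at 0.52 (adjusted p = 0.201). The call was also lost without adult replicate 1 (adjusted p = 0.0655), adult replicate 3 (0.0829) or P1 replicate 2 (0.0568), at log2 differences of 0.94 to 0.99.

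The other 3 subunits of complex II did not follow. Sdhb, the iron-sulfur subunit, was at 11084.2, 9428.3 and 12788.5 in adult and 14910.5, 12790.9 and 13709.7 in P1 bladder. Sdhd, a membrane anchor of the complex, was at 7660.5, 6786.5 and 6975.8 in adult and 11963.6, 10967.9 and 10643.4 in P1 bladder. In both genes every adult array lay below every P1 array, though by little in Sdhb, and neither passed the test: the log2 differences were -0.32 (adjusted p = 0.407) and -0.64 (95% interval -1.11 to -0.18, adjusted p = 0.0923). Sdhc, the other anchor, overlapped between the groups, with 4804 ± 80.8 in adult and 4548 ± 844 in P1 bladder. A ratio within each array does not depend on how arrays are scaled, so Sdha was set against the mean log2 of Sdhb, Sdhc and Sdhd, as a pairing chosen after its values were seen. Relative to the P1 mean this difference was 1.28, 1.30 and 1.31 in the adult arrays, -0.03, -0.03 and 0.06 in the P1 arrays, and 0.65 in the reference. The adult arrays agreed closely here, adult replicate 2 included. The groups differed by 1.30 (2.46-fold), at an exact two-sided permutation p of 0.10, the smallest that 20 splits of 3 against 3 allow.

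Cytochrome c, encoded by Cycs, moves electrons between complexes III and IV and, when released from mitochondria, takes part in apoptosis. Its intensity (1456071_a_at) was 19325.7, 18093.0 and 22134.5 in adult bladder, 36268.6, 41120.7 and 47644.0 in P1 bladder and 48654.3 in the reference. All adult arrays were low and all P1 arrays high, and the highest P1 array reached about the reference. The means of 19851 ± 2071 and 41678 ± 5708 gave a log2 difference of -1.06 (SE 0.19, 95% interval -1.49 to -0.64, adjusted p = 0.0113). A second probe set, 1422483_a_at, was called too (-0.98, adjusted p = 0.0461), whereas 1422484_at (-0.13) and 1445484_at (0.98) were not, and with the mean of all probe sets Cycs was not called (-0.30, adjusted p = 0.456). Of these probe sets, 1445484_at was of low signal (mean intensity 536, above the array median on 4 arrays), and 1422484_at was not (16506, above it on 7 arrays). Cycs was not called without adult replicate 1 either (-1.05, adjusted p = 0.054).

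Complex III passes electrons from ubiquinol to cytochrome c. Uqcrc1, one of its core proteins (1428782_a_at), was at 6924.9, 8287.5 and 7825.3 in adult, 12367.2, 14302.9 and 17734.4 in P1 bladder and 22054.8 in the reference. The 3 adult values lay close together and below all P1 values, which spread more widely. It fell by 0.93 on the log2 scale (7679 ± 693 against 14801 ± 2718, SE 0.22, adjusted p = 0.0375). The call was lost in 9 of 21 alternatives, against 7 for Atp5o, 6 for Sdha and 4 for Cycs. It was lost when any 1 of adult replicates 1 and 3 and P1 replicates 1, 2 and 3 was left out (adjusted p = 0.0608 to 0.143). Uqcrc2, the other core protein (1435757_a_at), was at 19286.0, 29518.6 and 20086.3 in adult and 19728.7, 21316.6 and 18849.2 in P1 bladder. Those groups overlapped, with adult replicate 2 the highest array, and the log2 difference was 0.18 (95% interval -0.32 to 0.67). Within an array, Uqcrc1 minus Uqcrc2 was -1.03, -1.38 and -0.91 in the adult and -0.23, -0.13 and 0.36 in the P1 arrays, relative to the P1 mean. The exact two-sided permutation p was 0.10, the smallest possible. This pair was also chosen after values were seen, which favours such a separation, and Uqcrc2 had the highest difference in complex III. Of the others, Uqcrq (-0.89) and Uqcrfs1 (-0.70) were lower too, while Uqcrb (0.03) and Cyc1 (-0.01) were nearly level.

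Cyc1, cytochrome c1 and the electron donor to cytochrome c (1416604_at), was nearly level between the stages, at 13134.4, 17916.9 and 14791.4 in adult and 15741.5, 15030.6 and 15112.9 in P1 bladder. Its log2 difference was -0.01 (95% interval -0.47 to 0.44). Set against Cyc1 within each array, Cycs was at -0.88, -1.42 and -0.85 in the adult and -0.23, 0.01 and 0.22 in the P1 arrays, and at -1.19 in the reference, relative to the P1 mean. The exact two-sided permutation p between the bladder groups was 0.10, the smallest possible, for a pair chosen after values were seen. The reference thus stood with the adult arrays in this ratio, although its Cycs intensity alone stood with the P1 arrays. Uqcrq, a small subunit, had all adult arrays below the P1 arrays (2223.6, 4444.5 and 2380.5 against 5805.4, 4479.0 and 5879.2), with adult replicate 2 just under the lowest P1 value and no call (-0.89, adjusted p = 0.127). Uqcrfs1, the Rieske iron-sulfur protein, had the same order at 12282.1, 5341.2 and 11871.3 against 16285.3, 15202.3 and 13453.2, but here adult replicate 2 was the lowest (-0.70, adjusted p = 0.233). Uqcrb, the ubiquinone-binding protein, overlapped between the stages (0.03). Its values were near the top of the measured range on all bladder arrays, at up to 91.5% of the highest on an array. They were 67601.3, 114803.8 and 68621.0 in adult bladder, with array maxima of 75222, 143540 and 74986. In P1 bladder they were 81174.1, 73778.4 and 83341.1, with maxima of 95910, 81195 and 99778. The small difference so near the top does not show that Uqcrb was unchanged.

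**Figure D2:**
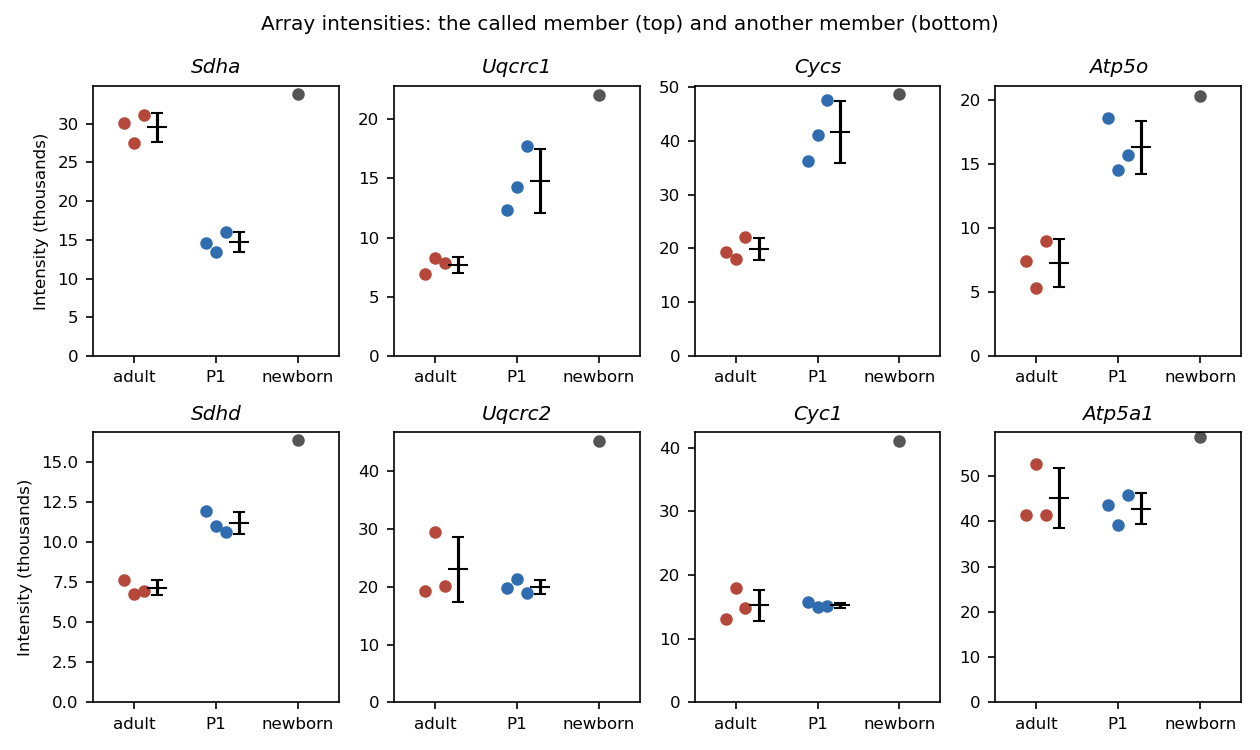
Points are single arrays and the black marks are the mean ± SD of 3 bladders, on a linear axis of intensity that starts at 0, with 1 point for the whole-newborn reference. The top row shows Sdha, Uqcrc1, Cycs and Atp5o, whose adult and P1 points are apart, and the bottom row Sdhd, Uqcrc2, Cyc1 and Atp5a1, of which Sdhd alone has no overlap between the bladder groups.

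In complex V, Atp5o was lower in adult bladder. It encodes the subunit of the stalk that confers sensitivity to oligomycin. The probe set (1416278_a_at) gave 7402.9, 5282.7 and 9015.6 in adult, 18633.5, 14551.9 and 15695.1 in P1 bladder and 20344.7 in the reference. Every adult value was well under every P1 value, with adult replicate 2 the lowest. It fell by 1.19 on the log2 scale (7234 ± 1872 against 16294 ± 2106, SE 0.25, 95% interval -1.76 to -0.62, adjusted p = 0.0233). A second probe set, 1437164_x_at, fell by 1.11 (adjusted p = 0.0193). The call was lost without adult replicate 1 (adjusted p = 0.0787) or any 1 of the P1 replicates (0.0566 to 0.0882).

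The catalytic head of the synthase gave other values. Atp5a1, its alpha subunit, was at 41340.5, 52710.1 and 41361.9 in adult and 43539.8, 39095.3 and 45725.7 in P1 bladder. The groups overlapped, with a log2 difference of 0.07 (95% interval -0.32 to 0.46). Atp5c1, the gamma subunit of the central shaft, had the narrowest interval of the members, from -0.34 to 0.36 around 0.01. Its chosen probe set (1416058_s_at) reached up to 82.3% of the highest value on an array. Another probe set of Atp5c1, 1438809_at, gave 1.41 (95% interval 0.15 to 2.66) and was not called (adjusted p = 0.1625). Atp5b, the catalytic beta subunit, was at 29058.3, 18708.4 and 33655.2 in adult and 35286.6, 35189.8 and 37320.9 in P1 bladder, below in all adult arrays but not called (-0.45, adjusted p = 0.287). Within an array, Atp5o minus the mean of these 3 was -0.98, -1.45 and -0.78 in the adult, 0.17, -0.06 and -0.11 in the P1 arrays and -0.04 in the reference, relative to the P1 mean. The exact two-sided permutation p between the bladder groups was 0.10, the smallest possible, for a pairing chosen after values were seen. Here the reference stood with the P1 arrays.

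Complex I had no member called by limma among its 20, and 3 with an unadjusted p under 0.05. Of these, 17 had a lower and 3 a higher mean in adult bladder, with a median of -0.24 and a range of -0.60 to 0.54. In 8 of them (Ndufa2, Ndufa4, Ndufa5, Ndufa8, Ndufb3, Ndufb5, Ndufb10 and Ndufs3) all adult arrays were below all P1 arrays (16.4% of genes), and 12 overlapped. After median centring 6 of the 20 had that order (15.6% of genes). Ndufa4 is kept here with complex I, where it was first placed, although it is now known as a subunit of complex IV. Ndufa2, an accessory subunit, had the lowest difference: 14820.5, 17947.2 and 16164.2 in adult against 21505.4, 25031.9 and 28180.0 in P1 bladder. No array crossed between the groups, and at -0.60 (95% interval -1.05 to -0.16, adjusted p = 0.0963) it was called with array weights, with the spike-in covariate and without adult replicate 2 (adjusted p = 0.0214 to 0.0492). Ndufb5, a subunit of the membrane arm, was close to it (-0.58, adjusted p = 0.105).

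The highest difference in complex I was that of Ndufs7, which carries the last iron-sulfur cluster before ubiquinone. It was at 7162.1, 15994.8 and 6435.2 in adult and 6768.6, 4691.0 and 7520.5 in P1 bladder. Adult replicate 2 alone was high, the other adults lay among the P1 values, and the difference of 0.54 was not called (adjusted p = 0.423). Ndufs8, another iron-sulfur subunit, was likewise at 19799.3 in adult replicate 2 against 7989.5 and 9135.7 in the other adults. Ndufs1, the largest subunit, went the other way, at 3999.2 against 11002.3 and 10824.9. Across the 35 members adult replicate 2 was the highest adult array in 19 and the lowest in 15, and its median distance from the other adults was 0.35 on the log2 scale, against 0.20 and 0.24 for adult replicates 1 and 3. Ndufv1 (0.36) and Ndufv2 (-0.16), core subunits of the module that oxidizes NADH, were not called, although a second probe set of Ndufv2, 1428179_at, was (-0.94, adjusted p = 0.0443).

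**Figure D3:**
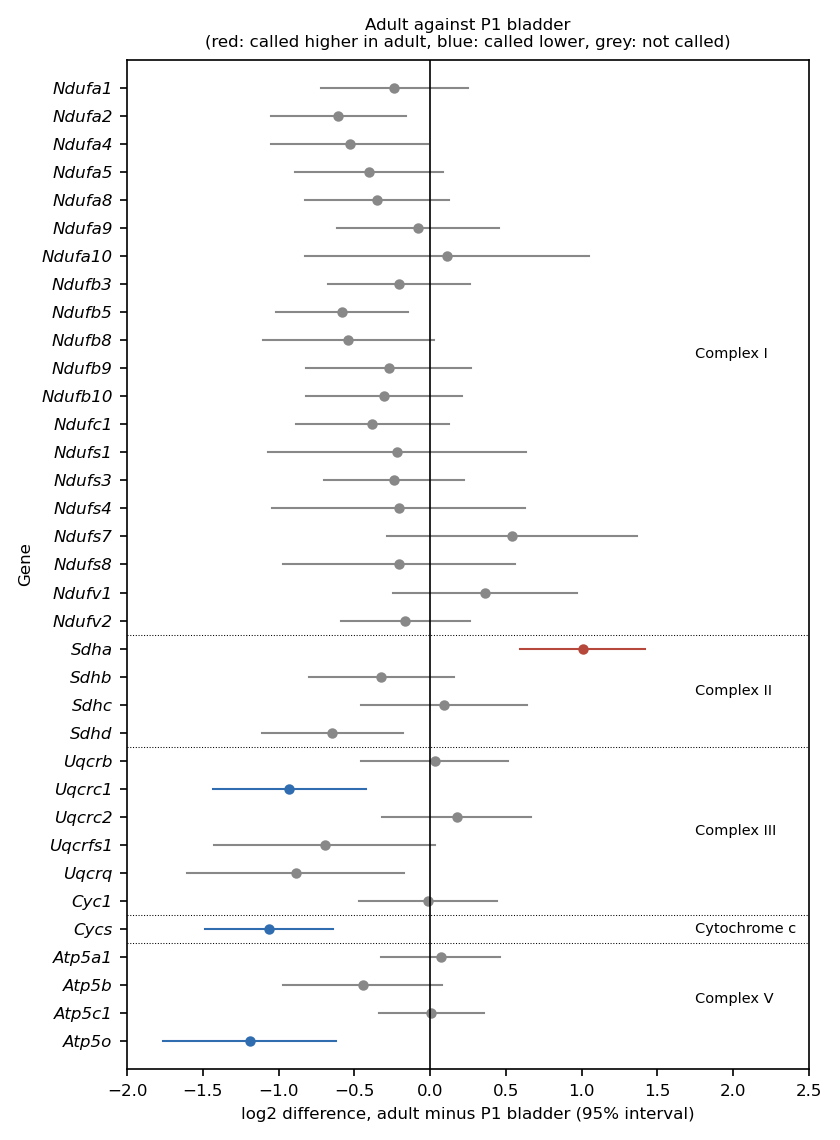
Points are log2 differences, adult minus P1 bladder, and bars their 95% intervals from limma, with 3 bladders a group. Of 35 members, 26 lie left of 0, and the intervals of Cycs, Uqcrc1 and Atp5o on the left and of Sdha on the right are those whose adjusted p was under 0.05.

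The count of members called, and that of all genes called, depended on which arrays were used. Without adult replicate 1 none was called, where 1.10% of all genes were called higher and 2.32% lower. Without adult replicate 2 Sdha was called higher (5.07% of genes) and 6 members lower (5.91%). Without adult replicate 3, 0 members were called higher and 2 lower (116 and 273 of 12392 genes). Without P1 replicate 1, 2 or 3, 1 member was called lower each time (2.78%, 2.60% and 3.27% of genes). Sdha was called higher without P1 replicate 1 or 3 (276 of 12321 and 312 of 12412 genes). Without P1 replicate 2, 0 members were called higher (233 of 12285 genes). Without adult replicates 1 and 3, the arrays with gland transcripts, 0 were called (0.205% of genes higher and 1.06% lower). Other values moved with stage as well: all 9 tested markers of dividing cells were lower in adult bladder (mean log2 7.81 to 7.97 in adult against 11.2 to 12.1 in P1 bladder). Of the skeletal muscle markers, 6 of 9 tested were lower (8.29 to 8.64 over the 13 on the array against 10.3 to 11.2). Of the cardiac markers, 3 of 6 tested were lower (8.95 to 9.14 against 10.5 to 11.1). Of the leukocyte markers, 3 of 8 tested were higher (9.85 to 10.4 against 8.97 to 9.61). The ratio of 3′ to 5′ signal of Actb was 3.84 to 5.15 in adult and 1.85 to 3.70 in P1 bladder, and that of Gapdh, with the opposite order and an overlap, was 15.3 to 19.6 in adult and 19.1 to 30.9 in P1 bladder. The part of these in the stage differences was not tested.

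Both bladder groups were then set against the whole-newborn reference, the study's common standard. These comparisons share 1 reference array, which has no replicate, so the spread comes from the bladders alone. They also depend on scaling: the median intensity of the reference was 434 against 209 to 312 in bladders, and centring on array medians shifted all differences from it by about 0.68 (P1) and 0.67 (adult) on the log2 scale. As deposited, 26 members were below the reference on all 3 P1 arrays (74.3% of members, 33.6% of genes) and 27 on all 3 adult arrays (77.1%, against 36.6% of genes). After centring, 7 were below on all P1 arrays (15.0% of genes) and 17 above (62.9%), and 15 were below on all adult arrays (19.2%) and 11 above (58.9%). Over all genes, calls were 436 higher and 843 lower in P1 bladder as deposited, 1056 and 545 after centring and 748 and 767 after quantile normalization, and in adult bladder 812 and 1206, 1678 and 790, and 1206 and 1154. The median difference of the members was -0.46 in P1 and -0.86 in adult bladder as deposited, against 0.00 and -0.03 over all genes. After centring it was 0.22 and -0.19, against 0.68 and 0.64 over all genes. Centring adds 1 constant per comparison to every gene, so it moves the sign and leaves the gap between the members and all genes as it was. With quantile normalization, which adds no such constant, the medians were -0.62 in P1 and -0.91 in adult bladder, against 0.19 and 0.16 over all genes.

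**Figure D4:**
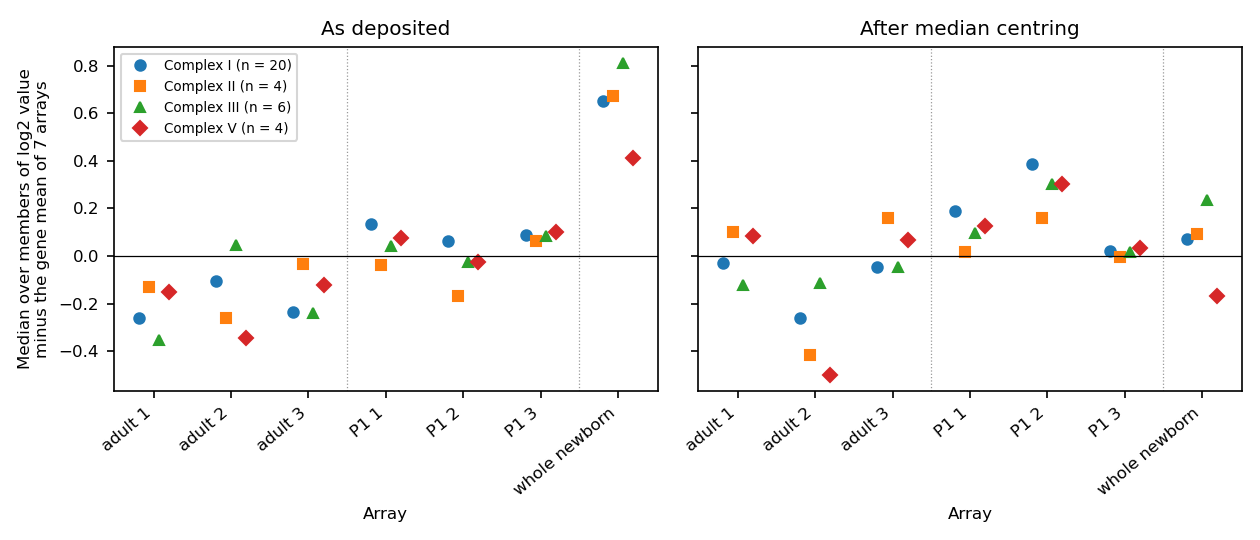
Each point is the median over a complex's members of the log2 value minus that gene's mean over the 7 arrays, as deposited on the left and with every array centred on its own median on the right. The reference is the highest array for complexes I, II, III and V on the left, at 0.41 to 0.81, and lies between -0.17 and 0.23 on the right.

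As deposited, P1 bladder had 2 members lower than the reference and 0 higher, where 9.32% of 13726 genes were called (6.14% lower and 3.18% higher). Cyc1 was at 40984.1 in the reference, so that each P1 array held well under that (log2 difference -1.42, SE 0.28, adjusted p = 0.0168). Sdha was the other (-1.20, SE 0.25, adjusted p = 0.0231), and Uqcrc2, at 45233.3 in the reference, missed the threshold (-1.18, adjusted p = 0.0501). Sdha was not called without adult replicate 1 or 3 or P1 replicate 1 or 2 (adjusted p = 0.0522 to 0.0661), which left 1 member called (4.68%, 4.66%, 5.47% and 4.78% of genes called lower). In 5 members, all accessory subunits listed under complex I, every P1 array was above the reference (33.9% of genes): Ndufa1, Ndufa2, Ndufa4, Ndufa5 and Ndufb3. Ndufa2 stood at 178% of the reference in P1 bladder (reference 13959.5). After centring, 0 members were called lower (3.97% of genes) and 2 higher, Ndufa1 and Ndufa2 (7.69% of genes).

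Adult bladder had 7 members lower than the reference and 0 higher, where 15.0% of 13477 genes were called (8.95% lower and 6.03% higher). They were Uqcrc1 (-1.52, adjusted p = 0.0144), Atp5o (-1.52, adjusted p = 0.0251), Cyc1 (-1.43, adjusted p = 0.0122), Cycs (-1.30, adjusted p = 0.0154), Sdhb (-1.24, adjusted p = 0.0262), Sdhd (-1.19, adjusted p = 0.0266) and Ndufb10 (-1.14, adjusted p = 0.0452). By complex these were 1 of 20 in complex I, 2 of 4 in complex II, 2 of 6 in complex III, 1 of 4 in complex V, and cytochrome c. The complex I call, Ndufb10, was lost in 9 of 20 alternatives. Ndufb10, a membrane arm subunit, was at 4919.3, 4949.6 and 5331.4 in adult and 6663.2, 5375.3 and 6844.0 in P1 bladder against 11234.8. The adult arrays were the low ones, though P1 replicate 2 nearly joined them. Sdha stood at 87.3% of the reference in adult and 43.4% in P1 bladder, and Cyc1 at 37.3% in both. The count was 3 without adult replicate 1 (6.22% of genes), 4 without adult replicate 3 (6.11%) and 15 without adult replicate 2 (11.5%), and 0 after centring, where 5.86% of genes were lower and 12.5% higher.

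Striated muscle and brown fat are tissues rich in mitochondria. Of 13 skeletal muscle markers, 8 were called lower in P1 and 12 in adult bladder, and of the fat markers 4 in each. Skeletal muscle markers had a mean log2 of 14.3 in the reference with all 13 above the array median, against 8.29 to 8.64 and 5 of 13 in adult and 10.3 to 11.2 and 9 to 11 of 13 in P1 bladder. Of 7 fat markers on the array, 6 were above the median in the reference (mean log2 12.1) 3 to 5 in adult (8.47 to 9.42) and 1 to 2 in P1 bladder (7.58 to 7.99). Ucp1, the uncoupling protein that defines brown fat, was at 39420.8 in the reference and between 4.3 and 125.8 in the bladders. Cardiac markers were at 12.2 against 8.95 to 9.14 in adult and 10.5 to 11.1 in P1 bladder, with 6 and 3 of 9 called lower and 0 and 1 called higher. Their part in the differences from the reference was not tested.

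Of the other subunits, the lists gave no call between the stages and mostly the members' sign: 11 of 12 tested subunits of complex I, 3 of 3 of complex III, 10 of 12 of complex V and 8 of 9 of complex IV had a lower mean in adult bladder. Their medians were -0.38, -0.77, -0.33 and -0.27, and 4, 0, 4 and 1 of them had an unadjusted p under 0.05 in limma. Complex IV, cytochrome c oxidase, hands the electrons to oxygen. Its subunit Cox6c was higher than the reference in both bladder groups, at 28878.7, 38786.4 and 30521.3 in adult and 42314.0, 38823.8 and 36647.7 in P1 bladder against 15343.8 (1.08, adjusted p = 0.0321, and 1.35, adjusted p = 0.0171). No probe set was matched to the genes of the mitochondrial genome, and they were not analysed here.

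Among 16 regulators of mitochondrial biogenesis 1 was called between the stages. Ppargc1a, the coactivator named above, was at 2277.6, 1641.8 and 3471.9 in adult, 717.4, 533.8 and 433.0 in P1 bladder and 2996.9 in the reference. The adult arrays were all above the P1 arrays and around the reference. It rose by 2.00 on the log2 scale (95% interval 1.20 to 2.81, adjusted p = 0.0117), and its other 4 probe sets gave 1.03 to 2.30, although the call was lost without adult replicate 1 or 3 (adjusted p up to 0.221 over the alternatives). The factors themselves were not called: Nrf1 -0.15, Gabpa -0.27, Esrra 0.45 and Tfam, which maintains mitochondrial DNA, -0.29. Their other probe sets gave -0.60, -0.57 and -0.20 for Nrf1, 0.54 for Esrra, and the opposite sign for Gabpa (0.18) and Tfam (0.07). Against the reference, 3 of the 16 regulators were called lower in P1 bladder (6.14% of genes) and 1 in adult bladder (8.95%), and 0 higher. Among these, Ppargc1a was lower in P1 bladder (-2.35, adjusted p = 0.0262). Esrrg, an estrogen-related receptor, was lower in P1 and adult bladder (-3.10, adjusted p = 0.0422, and -3.34, adjusted p = 0.0243).

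Of 23 assembly factors tested 1 was lower: Tmem70, which is needed to assemble the ATP synthase, was at 3517.9, 2125.7 and 3367.1 in adult against 8493.7, 8698.3 and 6386.0 in P1 bladder and 2274.3 in the reference. The P1 arrays alone were high, and it fell by 1.39 on the log2 scale (adjusted p = 0.0194, up to 0.0796 over the alternatives). Timm23, a channel of the inner membrane that imports proteins, was the 1 lower gene of 16 other envelope proteins (-1.003, adjusted p = 0.0334), but 8 of 21 alternatives ended that call, at adjusted p of up to 0.25. Of 12 genes of the citrate cycle 0 were called by limma between the stages, with 1 at an unadjusted p under 0.05. Idh3a, which makes NADH in that cycle, was lower than the reference in both bladder groups (-1.97, adjusted p = 0.03, in P1 and -1.91, adjusted p = 0.025, in adult bladder).

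Of 12 glycolytic genes tested, 1 was higher and 2 lower in adult bladder. Ldhb, the lactate dehydrogenase subunit of oxidative tissues, was at 28990.9, 43054.5 and 31848.0 in adult and 14389.5, 13274.3 and 13834.8 in P1 bladder. No adult array came near a P1 array, and it rose by 1.30 on the log2 scale (adjusted p = 0.00765), a call kept under all 21 alternatives run (adjusted p = 0.00071 to 0.0442). Pgam1 (-0.98, adjusted p = 0.0327) and Tpi1 (-1.22, adjusted p = 0.0378), enzymes of the glycolytic chain, were lower, and each lost its call in 9 of 21 alternatives. The median of the list was -0.40.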

How the data were processed

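Total RNA (RNeasy) was amplified in 2 rounds, labelled with biotin and hybridized to 1-colour arrays, per the labels' protocols. The authors deposited intensities on a linear scale. The submitters' processing notes name GCOS without a version, and how probes were summarized is not given in the sources used here. Every array had a mean of 1500 once the top and bottom 2% of its values were trimmed. Of 45101 probe sets, 64 controls were dropped, and the 45037 kept comprised 34945 that name 1 gene, 932 that name several and 9160 that name none. Gene names are those of the platform annotation.

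Values were analysed as log2(intensity + 49), the 20th percentile of all values, and a difference on that scale understates the change of low genes. limma 3.58.1 in R 4.3.3 (lmFit, eBayes with a trend) was fitted to all probe sets that exceeded the array median on 3 or more of 6 bladder arrays. For the reference 1 of the 4 arrays compared sufficed, and the fit held all 7 arrays in 3 groups. p-values are two-sided and Benjamini-Hochberg adjusted over all probe sets tested. The number of arrays limits the precision. The fit was tested on simulated data. Figures were drawn with matplotlib 3.10.9.

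Members and lists were chosen with earlier results of these data known. Values on all arrays are given for Cycs, members called between the stages and those with the largest rise and fall of each complex. They are also given for members called with the largest differences from the reference. Ndufb5, Ndufs1, Ndufs8, Ndufv1, Ndufv2, Sdhc, Uqcrb, Uqcrfs1, Uqcrq, Atp5b and Atp5c1 were added after values were seen. So were the pairs of genes set against each other within arrays. Of other lists, up to 4 genes called between the stages are named by adjusted p, with Nrf1, Gabpa, Esrra and Tfam whatever their values. Not every gene of these lists that was called against the reference is named. Alternatives covered the added constant, scaling, filter, variance model, array weights, probe set choice, spike-in signal and left-out arrays.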

Additional observations from a re-analysis of the deposited data

How the results depend on the processing

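The adult minus P1 difference in each complex's median level moved by less than the replicate spread under median centring and quantile normalization. For median centring this was fixed in advance, since it shifts every gene by 1 constant, which was 0.014 on the log2 scale between the stages. The levels of single arrays moved more, and 0 called members changed sign under any alternative run. Members called in adult against P1 bladder numbered 1 higher and 3 lower. Without the variance trend they were 0 and 0, without adult replicates 1 and 3 also 0 and 0, and with the mean of a gene's probe sets 0 higher. Those lower were 1 with median centring, 7 with array weights, 8 with the spike-in covariate and 5 without the spike-in-rich arrays (adult replicate 2 and P1 replicate 3). Leaving out 1 array gave 0 to 1 higher and 0 to 6 lower. P1 bladder against the reference (0 higher, 2 lower) gave 2 and 0 with median centring, 0 lower without the trend, 1 and 6 with array weights, 1 and 4 with the spike-in covariate, 8 lower without the spike-in-rich arrays, and 1 to 4 lower without 1 array. Adult bladder against the reference (7 lower) gave 0 with median centring, 12 with quantile normalization, 0 without the trend, 17 with array weights, 11 with the mean of probe sets, 15 with the spike-in covariate, 16 without the spike-in-rich arrays, 3 without adult replicates 1 and 3, and 3 to 15 without 1 array. The cause was not tested. Over all genes tested between the stages, calls numbered 473 higher and 582 lower, 296 and 447 with median centring, 1342 and 1248 with array weights, 880 and 1032 with the spike-in covariate, and 27 and 140 without adult replicates 1 and 3. The adult and P1 bladders came from different animals, so no paired analysis was made. With 3 bladders a group and 1 reference array, differences of the size of Sdhd or Ndufa2 lay at the edge of what passed.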
